A study of Mus musculus with 6 samples.

Results

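Pyruvate dehydrogenase and the tricarboxylic acid (TCA) cycle were examined at the RNA level in mouse bone marrow hematopoietic stem cells (HSCs) through 31 genes, chosen by name from 21851 genes in the deposited tables. They comprise the pyruvate carrier, the pyruvate dehydrogenase complex with its activating phosphatases, most enzymes of the cycle, the enzymes that feed the cycle from pyruvate, malate and glutamate, the aminotransferases and malate dehydrogenases of the malate-aspartate shuttle, and the citrate-cleaving enzyme. HSCs of mice given ionizing radiation (IR, 3 libraries) were compared with HSCs of control mice (Ctrl, 3 libraries). All mice were wild type (WT) for genotype, background-matched and housed free of specific pathogens. Both groups were sorted as lineage-negative, Sca-1-positive, c-Kit-positive, CD150-positive, Flt3-negative and CD48-negative cells. The sources used here do not give the dose, the time after exposure, age, sex or strain, or how many mice went into a library.

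Pyruvate made by glycolysis is either reduced to lactate in the cytosol or carried into mitochondria, where the pyruvate dehydrogenase complex turns it into acetyl-CoA. Kinases switch the complex off by phosphorylation and phosphatases switch it back on. The cycle condenses acetyl-CoA with oxaloacetate to citrate, oxidises it stepwise and passes the electrons to the respiratory chain. HSCs are known for a quiet, largely glycolytic metabolism, and pyruvate dehydrogenase kinases are known to hold pyruvate back from their mitochondria.

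Levels are in FPKM, fragment counts scaled by transcript length and library depth, with 1 value per gene and library, so those of different genes can be set side by side. Steps between the low values of single-transcript genes correspond to about 14300000 to 15800000 fragments in IR libraries and 14400000 to 16300000 fragments in Ctrl libraries. At such depths 1 FPKM on 1 kb of transcript equals roughly 14.3 to 16.3 fragments. Libraries correlated across genes with Pearson r of 0.9982 to 0.9983 within IR, 0.9984 to 0.9985 within Ctrl and 0.9901 to 0.9904 between the groups. Among the 26 members with a mean of at least 20 FPKM the median coefficient of variation was 2.07% in IR and 1.33% in Ctrl. The labels number the libraries as replicates without naming separate mice, so the spread behind each p-value is that between these libraries and may be technical.

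RNA of the 5 sorted markers was present in both groups, with 1 called higher, 3 lower and Kit not called. Ly6a, which encodes Sca-1, fell to 157 ± 5.17 FPKM in IR, against 203 ± 5.13 FPKM in Ctrl (log2 fold change -0.37, limma adjusted p = 4.84e-06). Kit stood at 96.7 ± 1.65 FPKM in IR and 97.5 ± 1.72 FPKM in Ctrl, and Slamf1, which encodes CD150, at 5.06 ± 0.443 and 3.57 ± 0.409 FPKM in IR and Ctrl (SD, n = 3 each). Flt3 and Cd48, whose proteins were gated out, gave abundant RNA, at 65.7 and 352 FPKM in IR against 125 and 400.1 FPKM in Ctrl. In both groups Cd48 had the highest level of the 5 and Slamf1 the lowest, and in Ctrl Flt3 lay above Kit. The RNA levels of these 5 genes thus do not follow the sort gate. The cells are called HSCs here after their labels. Markers of other lineages also differed between the groups. The counts below stand beside 54.7% called among all genes tested (25.8% higher, 28.9% lower), and the lists are small. The summed level of 8 granulocytic genes was 6064 to 6224 FPKM in IR and 5286 to 5321 FPKM in Ctrl, with 4 called higher (Mpo, Ctsg, Prtn3 and Elane, which carry most of the sum) and 4 lower. For 8 megakaryocyte genes it was 186 to 201 FPKM in IR and 152 to 156 FPKM in Ctrl, with 5 of the 7 tested called higher and 1 lower. The 5 lymphoid-primed genes found summed to 183 to 189 FPKM in IR and 440.2 to 454 FPKM in Ctrl, and all 4 tested were lower, with Dntt carrying most of the sum. Ranges for 10 erythroid genes were 555 to 562 FPKM in IR and 540.1 to 542 FPKM in Ctrl, with 5 of 8 tested higher and 3 lower. Car2 carried most of this sum and was called lower, at 435 FPKM in IR and 455 FPKM in Ctrl. Hba-a1 and Hbb-bs were the other erythroid genes called lower. For 6 mast cell and basophil genes the ranges were 375 to 387 FPKM in IR and 308 to 314 FPKM in Ctrl, with 4 of 6 higher and 1 lower. The 6 monocyte genes summed to 653 to 669.8 FPKM in IR and 742 to 749 FPKM in Ctrl, with 4 of 6 lower and none higher. The 6 endothelial genes gave 147 to 154 FPKM in IR and 212 to 217 FPKM in Ctrl, with all 4 tested lower, and the 6 stromal genes gave 16.2 to 16.7 FPKM in IR and 19.3 to 20.2 FPKM in Ctrl, with all 3 tested lower. The T cell genes Cd3d, Cd3e and Cd3g stayed under 1 FPKM in every library, and Cd3g was at 0 in all 6. Cd4 averaged 0.228 FPKM in IR and 1.33 FPKM in Ctrl. Within the endothelial list, Cdh5 and Kdr also stayed under 1 FPKM. Egfl7 did not, at 109 FPKM in IR and 159 FPKM in Ctrl, nor did Pecam1, at 35.2 and 43.1 FPKM in IR and Ctrl. Emcn stood at 5.83 and 10.4 FPKM, and Cldn5 at 0.374 and 1.62 FPKM, in IR and Ctrl. The 6 T and NK genes summed to 647 to 655 FPKM in IR and 528 to 552 FPKM in Ctrl, and Nkg7 made up nearly all of this sum, at 648 FPKM in IR and 535 FPKM in Ctrl. Nkg7 was called higher, and the other tested genes of that list, Cd4 and Klrb1c, were called lower. The part of these lineage markers in the results below was not tested.

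Member RNA was abundant and its total was close between the groups. The 31 members summed to 3045 to 3086 FPKM in IR libraries and 3106 to 3121 FPKM in Ctrl libraries. Mdh2, the mitochondrial malate dehydrogenase, had the highest level at 419.6 ± 11.5 FPKM in IR and 427 ± 3.47 FPKM in Ctrl. It was followed in both groups by Idh3g, Mdh1, Idh2, Suclg1 and Pdhb, in that order, and no library of 1 of these 6 genes reached the range of the next in the same group. Further down, the order changed for 17 members, by at most 4 places. Idh3a and Got2 overlapped in IR, at 131 to 138 and 132 to 137 FPKM. At the low end Pdp1, Pdp2, Pdpr and Pcx lay under 10 FPKM in both group means, and Me1 lay under 1 FPKM in every library.

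**Figure D1:**
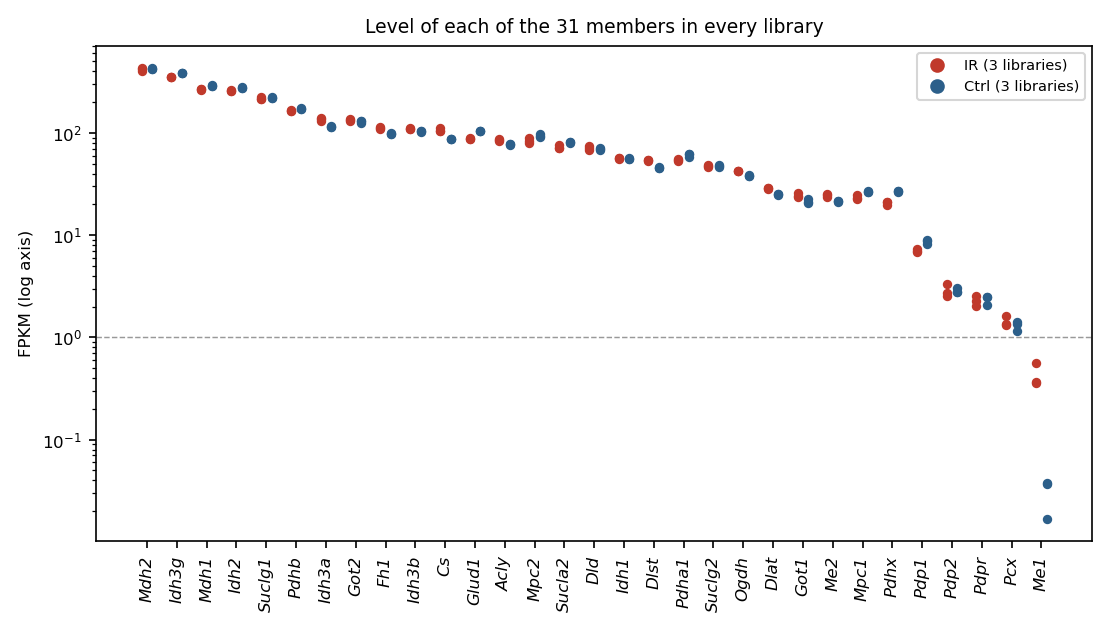
FPKM of the 31 members on a log axis, ordered by IR mean, with 3 IR libraries (red) left of 3 Ctrl libraries (blue) for each gene and a dashed line at 1 FPKM. Levels run from above 400 FPKM for Mdh2 to under 1 FPKM for Me1, for which the IR points lie clearly above the Ctrl points on this axis.

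Of the 30 members tested, 10 rose, 11 fell and 9 were not called in IR HSCs (limma on log2(FPKM + 1), Benjamini-Hochberg adjusted p under 0.05 over 10281 genes). Me1 had under 1 FPKM in all libraries and was not tested. The called share of members was 70.0%, against 54.7% of all genes tested (25.8% higher, 28.9% lower), and among genes averaging 20 FPKM or more it was 76.9% of 26 members, against 60.2% of 4068 genes. The changes were small. The median log2 fold change of the members was -0.0043, against -0.0072 for all genes tested, and the median size of change was 0.14 for both. Among genes averaging 20 FPKM or more, the median size of change was 0.149 for the 26 members, against 0.110 for the 4068 genes. IR and Ctrl libraries did not overlap in 22 of the 30 members, 11 with IR above and 11 with IR below. Among all genes tested 61.7% showed such separation, 29.1% with IR above and 32.5% with IR below. In 14 members (46.7%) the called change reached 0.15 on the log2 scale, against 43.1% of all genes tested. Among genes averaging 20 FPKM or more, these shares were 50% of members and 36.8% of all genes. The members that rose were Cs, Idh3a, Idh3b, Ogdh, Dlst, Fh1, Dlat, Me2, Got1 and Acly. Those that fell were Mpc1, Mpc2, Pdha1, Pdhb, Pdhx, Pdp1, Idh2, Idh3g, Sucla2, Mdh1 and Glud1. In bulk RNA, a smaller share of cells carrying a transcript and less of it per cell cannot be told apart.

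**Figure D2:**
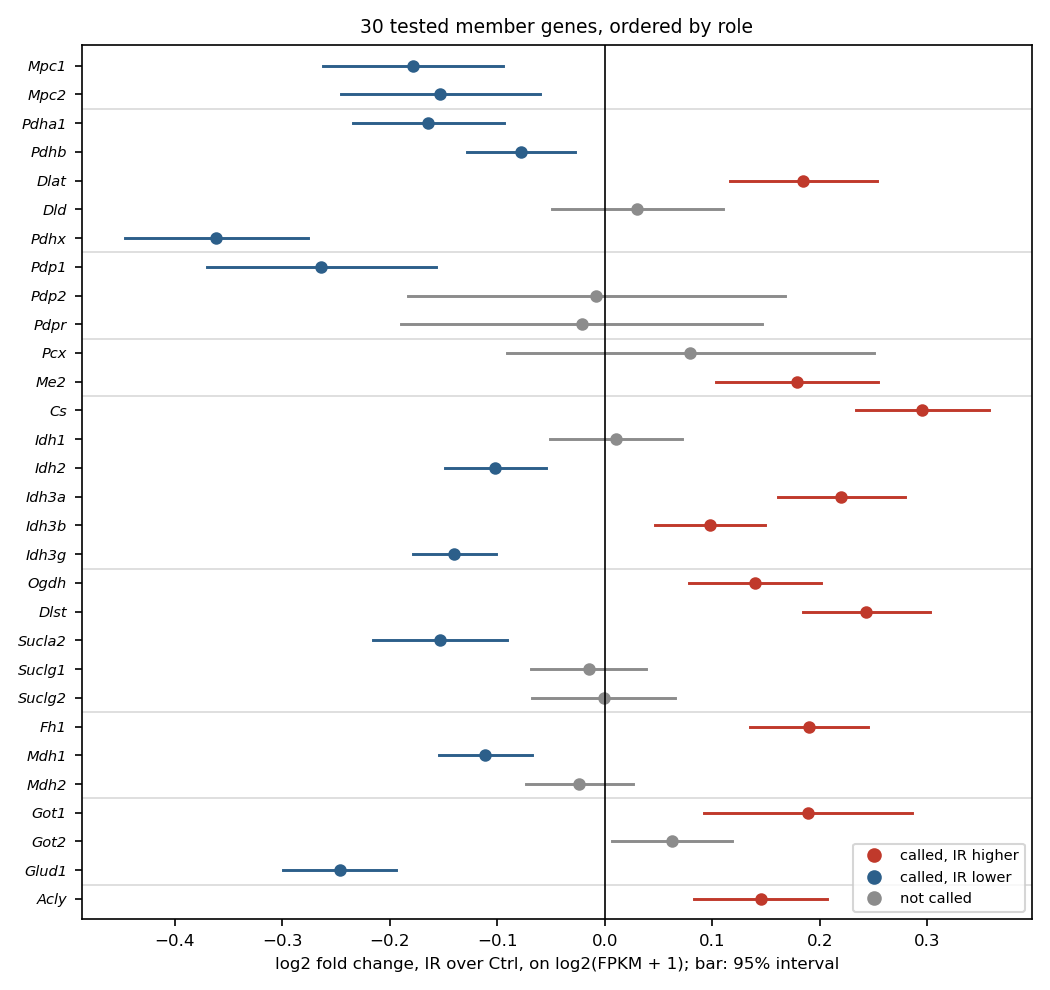
Log2 fold change of IR over Ctrl with its 95% interval for the 30 tested members, in rows grouped by role from pyruvate carriers at the top to Acly at the bottom. Pyruvate carriers and most pyruvate dehydrogenase genes lie left of 0, Cs, Idh3a, Dlst and Fh1 lie right of 0, and no member exceeds 0.37 in either direction.

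**Figure D3:**
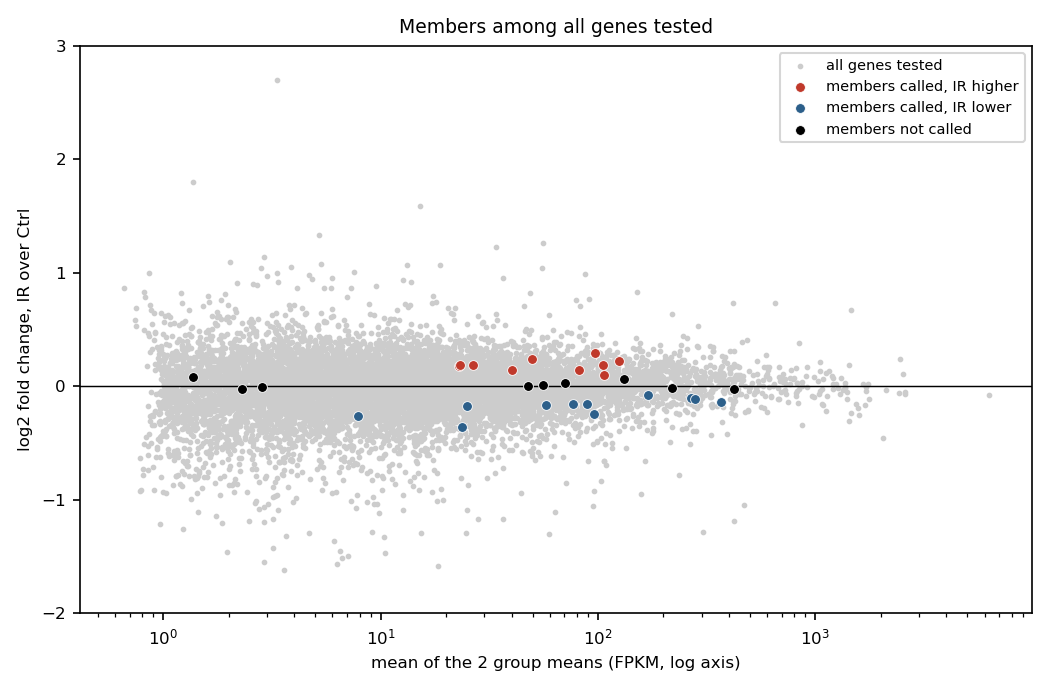
Log2 fold change of IR over Ctrl against the mean of both group means (FPKM, log axis) for all 10281 genes tested (grey) and the 30 members (coloured by call). The members lie within the cloud of all genes, whose changes run from -1.62 to 2.70.

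Promoter sequence was looked up for all members, whether called or not. RefSeq windows on GRCm38.p6, from 250 bases before to 50 after an annotated start, were matched by symbol for 28 of the 31 members. They were searched on both strands for 5 motifs: the ETS-factor core CCGGAAG, the E-box CACGTG, the YY1 core AAGATGG, the 10-letter NRF1 motif and the estrogen-related receptor motif TCAAGGTCA. The ETS core was found in 5 of 28 members (17.9%), namely Mpc1, Idh3b, Idh3g, Dlst and Glud1, and in 22.2% of 8020 tested genes with a window. Of these 5, Idh3b and Dlst rose while Mpc1, Idh3g and Glud1 fell. The E-box was found in 4 members (14.3%, against 12.1% of tested genes) and the YY1 core in Idh3g alone (3.57%, against 8.98%). The NRF1 and estrogen-related receptor motifs were in no member window, and in 2.64% and 0.324% of tested genes. Shown are Idh3b and Idh3g, which encode subunits of a single enzyme and moved in opposite directions, with Dlst and Glud1, the holders of the ETS core with the largest rise and the largest fall. Each runs 5′ to 3′ over 280 bases, ending 30 bases after the start, with motif matches in capitals (CCGGAAG or its complement CTTCCGG, and AAGATGG in Idh3g). No match overlaps another.
Idh3b, chr2:130284422-130284701, minus strand: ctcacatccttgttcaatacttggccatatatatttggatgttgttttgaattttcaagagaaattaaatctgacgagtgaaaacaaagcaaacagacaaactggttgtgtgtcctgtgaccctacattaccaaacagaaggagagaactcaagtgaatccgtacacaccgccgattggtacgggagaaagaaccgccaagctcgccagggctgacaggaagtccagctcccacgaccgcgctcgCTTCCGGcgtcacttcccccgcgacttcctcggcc
Idh3g, chrX:73786868-73787147, minus strand: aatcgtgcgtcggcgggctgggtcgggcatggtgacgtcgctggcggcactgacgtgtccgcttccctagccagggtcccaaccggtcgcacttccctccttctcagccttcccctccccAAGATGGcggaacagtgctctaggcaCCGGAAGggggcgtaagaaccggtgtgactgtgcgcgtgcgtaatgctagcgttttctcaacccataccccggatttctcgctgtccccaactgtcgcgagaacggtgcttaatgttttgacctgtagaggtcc
Dlst, chr12:85110583-85110862, plus strand: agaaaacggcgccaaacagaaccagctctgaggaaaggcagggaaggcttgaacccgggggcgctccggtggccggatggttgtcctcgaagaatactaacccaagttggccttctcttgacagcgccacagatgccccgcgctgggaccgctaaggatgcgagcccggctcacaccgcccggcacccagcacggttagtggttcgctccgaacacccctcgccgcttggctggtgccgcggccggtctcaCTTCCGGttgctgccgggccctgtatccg
Glud1, chr14:34310477-34310756, plus strand: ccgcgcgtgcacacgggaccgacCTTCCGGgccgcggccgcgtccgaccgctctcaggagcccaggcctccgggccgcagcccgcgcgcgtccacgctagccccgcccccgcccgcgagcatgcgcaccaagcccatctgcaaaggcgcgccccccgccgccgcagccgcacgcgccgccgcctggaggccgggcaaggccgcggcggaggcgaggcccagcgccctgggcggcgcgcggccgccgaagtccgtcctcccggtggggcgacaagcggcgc

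Genes that bring pyruvate into the mitochondrion, build pyruvate dehydrogenase or activate it changed in both directions, with more falls than rises. Of 10 members in this group (2 carrier, 5 complex and 3 phosphatase genes) 6 fell, 1 rose and 3 were not called, where 28.9% of all genes tested fell and 25.8% rose. One of the 6, Pdhb, lost its call under 4 alternatives. Mpc1 and Mpc2 encode the partner subunits of the mitochondrial pyruvate carrier in the inner membrane. Mpc1 stood at 24.5, 22.5 and 23.1 FPKM in IR, against 26.7, 26.5 and 26.3 FPKM in Ctrl. The 3 IR libraries lay below all Ctrl libraries, a log2 fold change of -0.18 (SE 0.038, limma adjusted p = 0.00268). Mpc2 stood at 89.5, 83.8 and 79.3 FPKM in IR, against 91.6, 97.0 and 92.3 FPKM in Ctrl. The groups again did not overlap, though IR replicate 1 came close to the lowest Ctrl library (log2 fold change -0.15, SE 0.042, limma adjusted p = 0.0103). The ratio of Mpc1 to Mpc2 was 0.277 ± 0.0119 in IR and 0.283 ± 0.00913 in Ctrl (SD, n = 3 each), which overlapped (exact permutation test, 2-sided, p = 0.5).

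Within the pyruvate dehydrogenase complex the subunit genes moved in opposite directions. Pdhx encodes the binding protein that anchors the dihydrolipoamide dehydrogenase to the core, and it showed the largest fall of all members tested. It stood at 19.6, 21.002 and 21.1 FPKM in IR, against 27.2, 26.1 and 26.8 FPKM in Ctrl, a ratio of means of 0.770 (log2 fold change -0.36, SE 0.038, limma adjusted p = 3.38e-05). Every IR library lay below every Ctrl library. The gene lies at chr2:103021075-103073513 (GRCm38). Pdha1, the X-linked catalytic alpha subunit that the kinases phosphorylate, stood at 53.2, 54.2 and 55.2 FPKM in IR, against 58.5, 62.5 and 61.5 FPKM in Ctrl. It was lower in all 3 IR libraries (log2 fold change -0.16, limma adjusted p = 0.00151). Its partner beta subunit Pdhb averaged 165 ± 2.98 FPKM in IR and 174 ± 1.999 FPKM in Ctrl (log2 fold change -0.078, limma adjusted p = 0.0140). The Pdhb call was lost after median scaling (adjusted p = 0.0761), without the variance trend in limma (0.0676), and without IR replicate 3 (0.0544) or Ctrl replicate 3 (0.0553). Dlat encodes the acetyltransferase that forms the core of the complex, and it went the other way. It stood at 28.7, 28.7 and 28.0 FPKM in IR, against 24.7, 25.1 and 25.0 FPKM in Ctrl, with no overlap (log2 fold change 0.18, SE 0.031, limma adjusted p = 0.000627). Dld, the dihydrolipoamide dehydrogenase shared with the 2-oxoglutarate and branched-chain complexes, was not called, at 71.4 ± 3.39 FPKM in IR and 69.8 ± 1.53 FPKM in Ctrl (95% interval of the log2 fold change -0.049 to 0.11). Summed over the 5 genes, the complex stood at 344, 336 and 338 FPKM in IR and 351, 356 and 361 FPKM in Ctrl.

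Pdp1, the main catalytic phosphatase that reactivates the complex, fell. It stood at 7.28, 6.88 and 6.97 FPKM in IR, against 8.70, 8.26 and 9.002 FPKM in Ctrl, a ratio of means of 0.813 (log2 fold change -0.26, SE 0.048, limma adjusted p = 0.00105). All IR libraries lay below all Ctrl libraries. The second phosphatase Pdp2 and the regulatory subunit Pdpr were low and not called. Pdp2 averaged 2.85 ± 0.415 FPKM in IR and 2.86 ± 0.161 FPKM in Ctrl, and Pdpr 2.29 ± 0.253 FPKM in IR and 2.33 ± 0.212 FPKM in Ctrl. Their 95% intervals, -0.18 to 0.17 and -0.19 to 0.15 on the log2 scale, include a change of the size measured for Mpc1 (log2 fold change -0.18).

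The kinases that oppose the phosphatases were listed as other genes of the pathway. Pdk1 stood at 27.6, 28.1 and 27.2 FPKM in IR, against 37.3, 38.1 and 38.7 FPKM in Ctrl (log2 fold change -0.45, limma adjusted p = 2.06e-06). Pdk2 stood at 12.9, 12.9 and 12.5 FPKM in IR, against 17.5, 16.4 and 16.4 FPKM in Ctrl (log2 fold change -0.37, adjusted p = 4.07e-05 by limma). Pdk3, the most abundant kinase gene in both groups, rose instead, at 93.7, 90.6 and 95.4 FPKM in IR against 84.1, 83.4 and 82.6 FPKM in Ctrl (log2 fold change 0.16, limma adjusted p = 0.000624). Pdk4 was listed at 0 in all IR libraries and at 0.0356 to 0.161 FPKM in Ctrl libraries, below the minimum for testing. RNA of both an activating phosphatase and a pair of inhibiting kinases was thus lower in IR, and RNA of the most abundant kinase was higher.

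Genes of citrate synthase and the isocitrate dehydrogenases changed in both directions, with the largest rise of all members tested in citrate synthase. Of these 6 members, 3 rose, 2 fell and 1 was not called, where 25.8% of all genes tested rose and 28.9% fell. They include the NADP-dependent Idh1, which was not called, and Idh2, which was 1 of the 2 that fell. Cs, which condenses acetyl-CoA with oxaloacetate, stood at 105, 104 and 111 FPKM in IR, against 86.8, 87.0 and 86.6 FPKM in Ctrl. The IR libraries lay far above the narrow Ctrl range, a ratio of means of 1.23 (log2 fold change 0.30, SE 0.028, limma adjusted p = 1.53e-05). The gene lies at chr10:128337734-128362479 (GRCm38). The NAD-dependent isocitrate dehydrogenase is built from the alpha, beta and gamma subunits of Idh3a, Idh3b and Idh3g. Idh3a, the catalytic subunit, stood at 138, 131 and 135 FPKM in IR, against 115, 114 and 118 FPKM in Ctrl, with no overlap (log2 fold change 0.22, SE 0.026, limma adjusted p = 7.71e-05). Idh3b averaged 110.1 ± 0.659 FPKM in IR and 103 ± 1.55 FPKM in Ctrl (log2 fold change 0.098, limma adjusted p = 0.00491). Idh3g, the most abundant of these subunit genes, fell to 351 ± 1.70 FPKM in IR, against 387 ± 2.17 FPKM in Ctrl (log2 fold change -0.14, limma adjusted p = 9.58e-05). IR and Ctrl libraries did not overlap for any of these subunit genes, a separation seen in 61.7% of all genes tested. The promoters of Idh3b and Idh3g are among the sequences printed above, and that of Idh3a is not.

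The NADP-dependent isocitrate dehydrogenases sit outside this enzyme. Idh2, the mitochondrial form, fell to 258 ± 3.07 FPKM in IR, against 277 ± 4.89 FPKM in Ctrl (log2 fold change -0.10, limma adjusted p = 0.00235). Idh1, the cytosolic form, was not called, at 56.3 ± 0.868 FPKM in IR and 55.9 ± 1.06 FPKM in Ctrl (95% interval -0.051 to 0.072). The Idh1 to Idh2 ratio was 0.216, 0.218 and 0.222 in IR and 0.198, 0.210 and 0.199 in Ctrl. It was higher in every IR library, at the smallest p the exact permutation test allows for 3 against 3 (2-sided p = 0.10, adjusted 0.20 over 8 ratios).

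The 2-oxoglutarate dehydrogenase complex was higher in both of its own subunit genes, whereas succinate-CoA ligase was not. Dlst, the succinyltransferase core of the complex, stood at 53.6, 54.3 and 54.7 FPKM in IR, against 46.2, 45.2 and 45.6 FPKM in Ctrl. All IR libraries lay above all Ctrl libraries (log2 fold change 0.24, SE 0.027, limma adjusted p = 4.20e-05). Ogdh, the dehydrogenase subunit, averaged 42.4 ± 0.353 FPKM in IR and 38.4 ± 0.345 FPKM in Ctrl (log2 fold change 0.14, limma adjusted p = 0.00172). Succinate-CoA ligase pairs the alpha subunit of Suclg1 with either the ADP-specific beta subunit of Sucla2 or the GDP-specific beta subunit of Suclg2. Sucla2 stood at 75.5, 71.6 and 71.8 FPKM in IR, against 82.0, 80.3 and 81.4 FPKM in Ctrl, with no overlap (log2 fold change -0.15, SE 0.028, limma adjusted p = 0.00111). Suclg2 was not called, at 47.4 ± 0.770 FPKM in IR and 47.4 ± 1.21 FPKM in Ctrl (95% interval -0.068 to 0.066), and neither was Suclg1, at 217 ± 5.44 FPKM in IR and 219.6 ± 3.39 FPKM in Ctrl. The Sucla2 to Suclg2 ratio was 1.62, 1.504 and 1.496 in IR and 1.68, 1.70 and 1.76 in Ctrl, lower in every IR library (exact permutation test, 2-sided p = 0.10, adjusted 0.20).

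Of the 3 fumarase and malate dehydrogenase genes, 1 rose, 1 fell and 1 was not called, where 25.8% of all genes tested rose and 28.9% fell. The fall was in the cytosolic malate dehydrogenase, not in an enzyme of the mitochondrial cycle. Fh1, the fumarase, stood at 114, 109 and 113 FPKM in IR, against 98.1, 98.8 and 97.6 FPKM in Ctrl. The IR libraries all lay above the Ctrl libraries (log2 fold change 0.19, SE 0.025, limma adjusted p = 0.000127). Mdh1, the cytosolic malate dehydrogenase of the malate-aspartate shuttle, fell to 268 ± 3.65 FPKM in IR, against 289 ± 1.78 FPKM in Ctrl (log2 fold change -0.11, limma adjusted p = 0.000865). Mdh2, its mitochondrial counterpart, was not called (95% interval -0.074 to 0.026). The Mdh1 to Mdh2 ratio averaged 0.638 ± 0.0232 in IR and 0.678 ± 0.00145 in Ctrl (SD, n = 3 each), lower in every IR library (exact permutation test, 2-sided p = 0.10, adjusted 0.20).

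Of the 3 members that exchange carbon with amino acids, glutamate dehydrogenase had the largest log2 fold change in size. Glud1, which converts glutamate to 2-oxoglutarate, stood at 87.0, 89.4 and 87.2 FPKM in IR, against 104, 104 and 105 FPKM in Ctrl. All IR libraries lay well below all Ctrl libraries, a ratio of means of 0.841 (log2 fold change -0.25, SE 0.024, limma adjusted p = 1.72e-05). Got1, the cytosolic aspartate aminotransferase, rose, at 24.4, 25.7 and 23.9 FPKM in IR against 21.2, 22.6 and 20.7 FPKM in Ctrl (log2 fold change 0.19, SE 0.044, limma adjusted p = 0.00436). Its mitochondrial counterpart Got2 averaged 134 ± 2.50 FPKM in IR and 128 ± 2.55 FPKM in Ctrl. The Got2 libraries did not overlap, yet it missed the threshold (log2 fold change 0.062, limma adjusted p = 0.0558), and it was called higher after median scaling (0.0121) and without IR replicate 1 (0.0443). The Got1 to Got2 ratio, 0.184 ± 0.00877 in IR and 0.168 ± 0.0114 in Ctrl, overlapped between groups.

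Enzymes that join pyruvate with malate and oxaloacetate were low apart from Me2. Me2, the mitochondrial NAD-dependent malic enzyme, stood at 25.1, 23.8 and 24.4 FPKM in IR, against 21.6, 21.6 and 21.2 FPKM in Ctrl. It was higher in all IR libraries (log2 fold change 0.18, SE 0.034, limma adjusted p = 0.00133). Pcx, the pyruvate carboxylase that refills oxaloacetate, was near the test minimum at 1.44 ± 0.167 FPKM in IR and 1.31 ± 0.149 FPKM in Ctrl and was not called (95% interval -0.091 to 0.25). Me1, the cytosolic NADP-dependent malic enzyme, stood at 0.364, 0.556 and 0.362 FPKM in IR, against 0.0370, 0.0168 and 0.0379 FPKM in Ctrl. Its groups differed more than those of any other member, at a level close to the detection limit. Worked back from depth and its longest transcript, these values correspond to about 18.9, 27.0 and 17.1 fragments in IR and 1.8, 0.9 and 1.8 fragments in Ctrl. The summed estimates, rounded to 63 and 5 fragments and scaled by the depth of each group, give a ratio of 12.8, with an exact 95% binomial interval of 5.19 to 40.7 that covers counting error only. Without the low-value minimum Me1 was called higher (log2 fold change 0.47 on the log2(FPKM + 1) scale, limma adjusted p = 0.000700). Sequence shared with a processed pseudogene (Gm7049, 98.5% identical over 1638 bases) and a long noncoding RNA (Gm48795, 98.7% over 1159 bases) makes this value uncertain.

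Acly, which cleaves exported citrate to cytosolic acetyl-CoA for lipid synthesis and histone acetylation, rose. It stood at 85.1, 84.1 and 88.0 FPKM in IR, against 75.7, 78.5 and 78.1 FPKM in Ctrl, with no overlap (log2 fold change 0.145, SE 0.028, limma adjusted p = 0.00150). Slc25a1, the carrier that exports citrate from mitochondria, was not called, at 92.0 ± 1.37 FPKM in IR and 92.5 ± 2.98 FPKM in Ctrl.

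**Figure D4:**
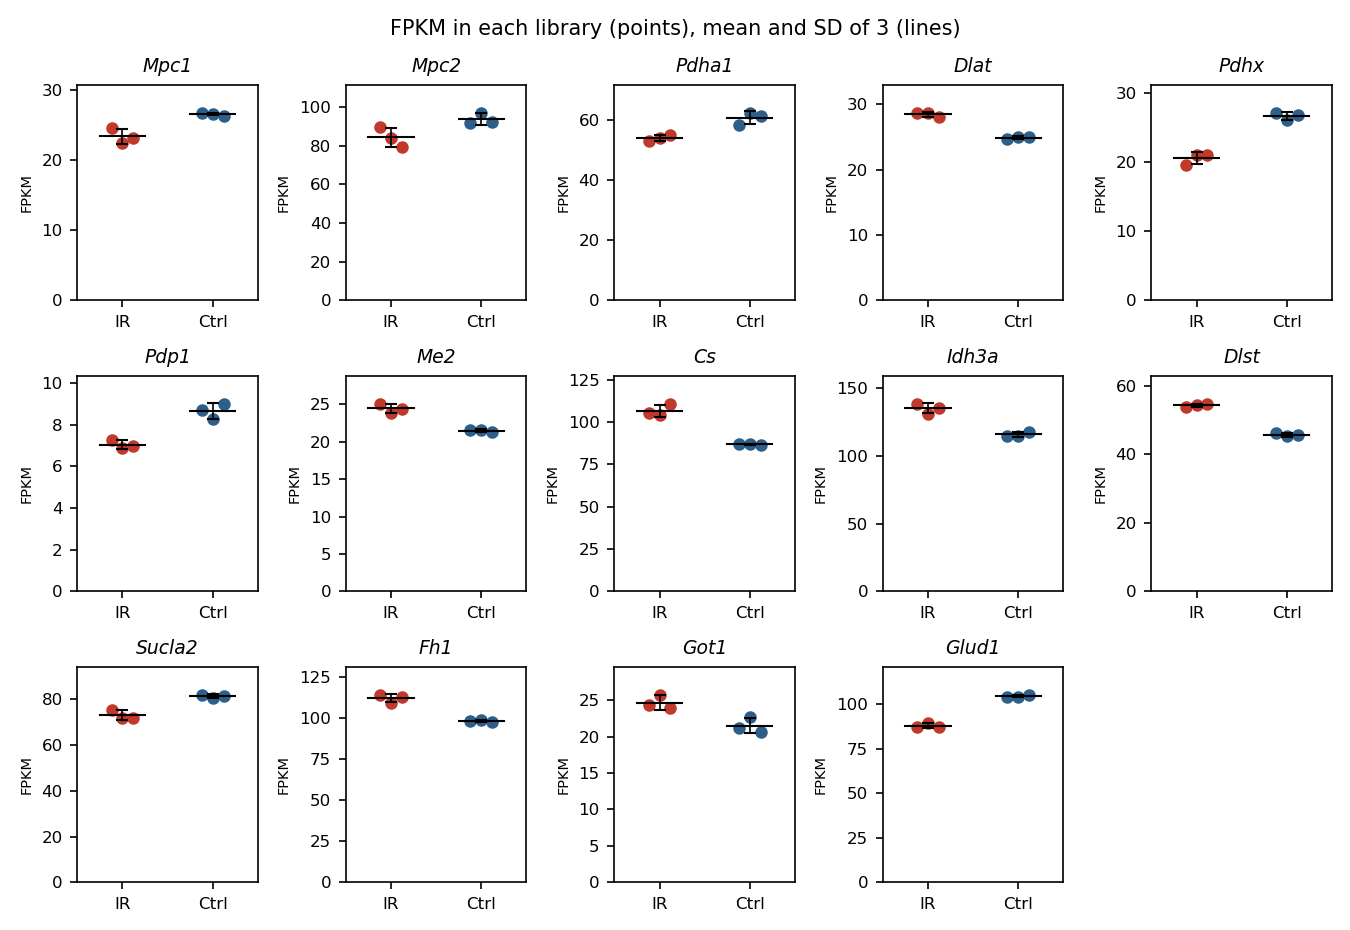
FPKM in each library (points) for the 14 members called with a log2 fold change of at least 0.15 in size, IR (red) left of Ctrl (blue), with the mean (long line) and SD of 3 libraries and axes starting at 0. In every panel the points of the groups do not overlap, and the distance between the groups is small beside the level itself.

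Some members share sequence with other annotated genes. Besides Me1, stretches of at least 300 bases with at least 95% identity to a transcript of another gene were found for Pdha1, Pdhb, Suclg2, Got2 and Glud1, mostly processed pseudogenes. For Pdha1 the match was to Map3k15 (100% over 426 bases), a gene whose exon overlaps it on the opposite strand. Map3k15 reached at most 0.156 FPKM. The sources used here do not say how reads of shared sequence were assigned, and the levels of these 6 genes are uncertain to that extent. Exons of 7 members overlap an exon of a gene on the opposite strand. Among these neighbours Nop56, opposite Idh3b, was abundant and not called (log2 fold change 0.047), and Wdpcp, opposite Mdh1, was at 5.07 to 6.03 FPKM over all libraries. The library kit keeps strand, but whether counting used it is not given.

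The rest of the pathway was examined through 52 further genes, of which 46 were tested. Of these 15 rose, 18 fell and 13 were not called, a called share of 71.7% against 54.7% of all genes tested. The genes with the smallest p were Ldhb, Bckdha, Pdk1, Ldha, Slc16a1, Glul, Pdk2 and Acss1. Ldhb, the lactate dehydrogenase subunit that favours lactate oxidation, stood at 29.1, 30.7 and 30.4 FPKM in IR, against 58.4, 58.4 and 58.7 FPKM in Ctrl. This was the largest log2 fold change among the tested pathway genes, members included, with a ratio of means of 0.514 (log2 fold change -0.94, limma adjusted p = 1.34e-08). Ldha, the other lactate dehydrogenase subunit, and Slc16a1, a carrier of lactate and pyruvate across the cell membrane, rose by 0.22 and 0.32 on the log2 scale. Ldha was far more abundant than Ldhb, at 1131 ± 18.2 FPKM in IR and 974 ± 7.39 FPKM in Ctrl. Slc16a1 stood at 50.3, 50.9 and 51.8 FPKM in IR and 40.2, 40.4 and 41.6 FPKM in Ctrl.

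Bckdha, the catalytic alpha subunit of the branched-chain 2-oxoacid dehydrogenase, a relative of the pyruvate complex, stood at 70.3, 70.2 and 67.6 FPKM in IR, against 108, 109 and 113 FPKM in Ctrl. It fell by 0.66 on the log2 scale (limma adjusted p = 1.09e-07), and Bckdhb and Dbt of the same complex fell by 0.20 and 0.22. Its kinase Bckdk rose by 0.10. Glul, the glutamine synthetase, and Acss1, the mitochondrial acetyl-CoA synthetase, both fell by 0.33. Of 10 aconitase and succinate dehydrogenase genes, assembly factors included, 5 fell, 1 rose and 4 were not called. Over all genes tested, 28.9% fell and 25.8% rose. Sdhb and Sdhc, an iron-sulfur and a membrane subunit, fell by 0.091 and 0.16, while Sdha and Sdhd were not called. Mitochondrial carriers of cycle intermediates rose in 4 of 6 tested cases and fell in none, and lipoate attachment genes rose in 2 of 4 and fell in none, where 25.8% of all genes tested rose and 54.7% were called in either direction. These sets are small, and a called share of 2 in 4 is near that of all genes. Gcsh, the lipoyl carrier protein of the glycine cleavage system, rose by 0.17 and Slc25a13, an aspartate-glutamate carrier, by 0.17.

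**Figure D5:**
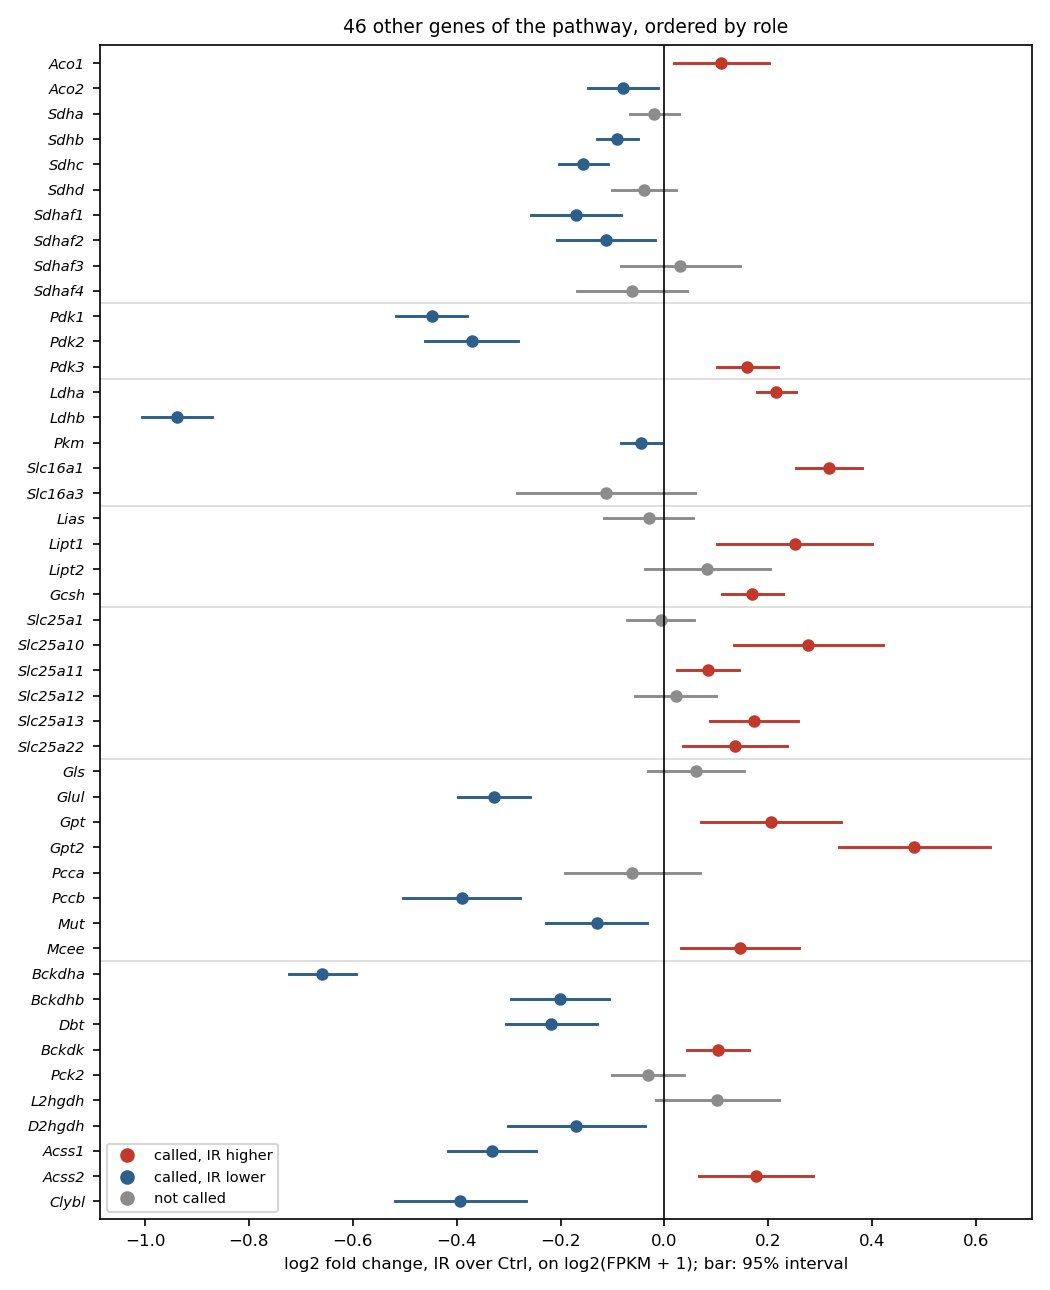
Log2 fold change of IR over Ctrl with its 95% interval for the 46 other pathway genes tested, in rows grouped by role from aconitases and succinate dehydrogenase at the top to Clybl at the bottom. Ldhb and Bckdha lie farthest to the left, and Gpt2, at about 2 FPKM in IR and 1 FPKM in Ctrl, lies farthest to the right at 0.48.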

How the data were processed

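RNA of HSCs from 3 IR and 3 Ctrl mouse bone marrow samples was measured by RNA-seq after selection of polyadenylated RNA with a stranded kit, per the labels' protocols. The deposited values are FPKM made by the authors, 1 per gene symbol and library. Values and tools pointed to this unit, because the headers name only the library. Per the submitters' processing notes the tools were fastp, HISAT2 and StringTie on GRCm38 (mm10). Versions, annotation, settings and use of strand were not given in the sources used here. FPKM are relative, so a rise of abundant genes lowers the rest.

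Of 21878 rows, 27 held a calendar date in place of a symbol and were left out. A gene was tested if 3 or more libraries reached 1 FPKM (10281 genes), with limma 3.58.1 in R 4.3.3 on log2(FPKM + 1), with a mean-variance trend, 2-sided, without replicate blocks and with Benjamini-Hochberg adjustment over all genes tested and a threshold of 0.05. Fold changes on this scale understate the change of genes at low levels. Within-library ratios of 8 member pairs were compared with an exact permutation test (smallest p 0.10). Alternatives were other pseudocounts, filters and scalings, limma without trend, a replicate block and leaving out each library.

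Depth was estimated from whole multiples of a step (tolerance 0.01) in FPKM times transcript length of single-transcript genes in GENCODE M21. Only 26.9% to 31.6% of low values came out whole, so reads were not recovered. Replicate pairs differed by more than counting noise, 1.29 to 1.795 times in chi-square on estimated fragments. Each library was counted once, but this excess does not show that the libraries came from separate mice. Near-identical transcripts were sought with blastn 2.17.0.

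Members and lists were chosen with earlier results of these data known. All members are named. Library values are printed for members called with a log2 fold change of at least 0.15 in size and for the member with the smallest p in each role. Of the other pathway genes, the 8 with the smallest p and the kinases are named by rule. Further genes were chosen after their values were seen: Slc25a1, Bckdhb, Dbt, Bckdk, Sdha, Sdhb, Sdhc, Sdhd, Gcsh, Slc25a13 and Gpt2. Same-numbered libraries of the groups did not deviate together. One list of lineage markers is not reported here.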

Additional observations from a re-analysis of the deposited data

How the results depend on the processing

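The count of genes called, 5622, ranged from 4381 with a filter of 5 FPKM to 6487 without a filter, and from 4893 to 5122 when 1 library was left out. Members called higher numbered 10 or 11 and members called lower 10 or 11 under every alternative run. Pdhb lost its call under 4 alternatives and Got2 gained one under 2, as given with those genes. Median scaling moved the median log2 fold change of all genes from -0.0072 to 0.016.

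Of 417 member values under the alternatives, 394 kept direction and call, 4 lost and 2 gained a call, and 17 changed sign. The sign changes were in members that were not called. After median scaling, log2 fold changes were 0.011 for Pdp2, 0.011 for Suclg1, 0.024 for Suclg2 and 0.0019 for Mdh2; after TPM scaling Suclg2 was at 0.0019. With 1 library left out, ranges were -0.0034 to 0.064 for Dld and -0.092 to 0.055 for Pdp2, -0.078 to 0.033 for Pdpr, -0.00059 to 0.026 for Idh1, -0.034 to 0.0010 for Suclg1 and -0.018 to 0.018 for Suclg2. The cause was not tested.

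The replicate block gave 5379 genes called, with 10 members higher and 11 lower. Same-numbered libraries correlated in their deviations from the group means at 0.009, -0.031 and -0.049 for numbers 1 to 3. Differently numbered libraries gave -0.015 to 0.045. No pairing was visible, though a small shared effect may not show against the noise between libraries, and the labels state no pairing. Within-library ratios kept their direction with 1 library left out, for example -0.19 to -0.13 for Sucla2 to Suclg2 on the log2 scale. Depth limits Me1 most, with about 0.9 to 1.8 fragments in each Ctrl library.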
